A study of Mus musculus with 10 samples.

Results

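The aryl hydrocarbon receptor gene *Ahr* and 4 of its classical target genes, *Ahrr*, *Cyp1a1*, *Cyp1b1* and *Tiparp*, were followed across 5 groups of mouse T cells. They are 5 of 18193 genes measured, and 10 of 45037 probe sets, taken as every probe set that the array annotation gives to 1 of these symbols alone. *Ahr* has 2 probe sets, *Cyp1b1* and *Tiparp* have 3 each, and *Ahrr* and *Cyp1a1* have 1 each. The genes are listed by name as classical targets, with no threshold on a value, but they were chosen with earlier results of these data known. The question was whether the targets followed *Ahr* in CD4+ TEM cells alone.

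RNA was measured on 10 Affymetrix expression arrays, 2 for each group. CD4+ TEM and CD8+ TEM cells (effector memory T cells) were grown from naïve T cells that had been sorted from wild-type C57BL/6 spleen as TCRβ+ CD62L+ CD44- cells. They were co-cultured for 25 days with IL-2 and γ-irradiated LMP1/2A+ B lymphoma cells, which carry 2 latent membrane proteins of Epstein-Barr virus, and given fresh lymphoma cells every week. The TEM cells were FACS-sorted on day 25 before their RNA was arrayed. CD4+ memory cells are the cells labelled as memory, or CM in their titles, of the same day 25 from naïve CD4+ T cells. Naïve CD4+ and naïve CD8+ T cells were not cultured. The TEM groups thus share the lymphoma line and IL-2, and no cells cultured with IL-2 alone are among the arrays. Parts of the sample records that describe germinal center B cells, a Foxo1 status and an edited lymphoma line do not match T cells and were set aside. Whether the 2 arrays of a group came from separate animals or cultures is not stated, and p-values therefore rest on the scatter within these pairs, which may be technical.

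AHR is a transcription factor that waits in the cytoplasm with HSP90 chaperones until a small aromatic ligand binds it. It then enters the nucleus, pairs with ARNT and binds DNA at xenobiotic response elements, whose core reads GCGTG. Among its classical targets, *Cyp1a1* and *Cyp1b1* encode cytochrome P450 enzymes that oxidize such ligands, while *Ahrr* and *Tiparp* encode inhibitors of the receptor itself. In T cells the receptor is known for its part in TH17 cells and in IL-10-producing regulatory cells.

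The promoter windows of the 4 targets are shown because the element is what ties them to the receptor. Each runs over 300 bases, from 250 before the start site to 50 after it, written 5′ to 3′ on the gene's strand, from RefSeq for assembly GRCm38.p6. They lie at chr13:74292282-74292581 (*Ahrr*, minus strand), chr9:57697363-57697662 (*Cyp1a1*, plus strand), chr17:79715012-79715311 (*Cyp1b1*, minus strand) and chr3:65528197-65528496 (*Tiparp*, plus strand). Capitals mark GCGTG on the gene's strand or, as CACGC, on the opposite strand.
Ahrr: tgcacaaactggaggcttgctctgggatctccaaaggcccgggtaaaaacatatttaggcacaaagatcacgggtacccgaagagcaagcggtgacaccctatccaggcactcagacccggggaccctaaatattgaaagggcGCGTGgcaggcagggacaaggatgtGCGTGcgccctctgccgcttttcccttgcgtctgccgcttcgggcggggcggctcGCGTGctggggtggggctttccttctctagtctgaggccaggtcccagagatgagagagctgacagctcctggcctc
Cyp1a1: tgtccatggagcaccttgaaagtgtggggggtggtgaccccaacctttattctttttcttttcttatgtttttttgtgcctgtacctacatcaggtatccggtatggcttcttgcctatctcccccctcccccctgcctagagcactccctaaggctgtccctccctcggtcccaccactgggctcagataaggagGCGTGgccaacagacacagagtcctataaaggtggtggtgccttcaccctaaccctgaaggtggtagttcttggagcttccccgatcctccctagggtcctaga
Cyp1b1: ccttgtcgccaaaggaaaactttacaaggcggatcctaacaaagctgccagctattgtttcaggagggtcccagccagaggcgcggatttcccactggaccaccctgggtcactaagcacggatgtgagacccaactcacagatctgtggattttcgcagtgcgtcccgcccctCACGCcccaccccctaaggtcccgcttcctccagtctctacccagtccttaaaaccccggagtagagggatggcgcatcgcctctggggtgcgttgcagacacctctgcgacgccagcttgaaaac
Tiparp: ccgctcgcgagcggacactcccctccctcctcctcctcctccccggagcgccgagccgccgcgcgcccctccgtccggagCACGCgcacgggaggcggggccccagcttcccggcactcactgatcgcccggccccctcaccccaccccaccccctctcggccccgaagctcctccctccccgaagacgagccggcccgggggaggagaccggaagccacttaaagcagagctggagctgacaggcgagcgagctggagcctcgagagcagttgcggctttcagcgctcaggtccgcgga

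All 4 windows hold the core at least once. *Ahrr* holds it 3 times on its own strand, with first bases 107, 82 and 27 bases before the start site. *Cyp1a1* has 1 match on its own strand at 54 bases, *Cyp1b1* has 1 on the opposite strand at 76 bases and *Tiparp* has 1 on the opposite strand at 170 bases. Of 32851 promoter windows of the same length, 32.4% hold at least 1 match on either strand, 11.1% at least 2 and 3.91% at least 3. The letters describe the windows and say nothing on binding in these cells. No window was matched for *Ahr*.

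The array medians lay between 4.65 and 4.75 on the log2 scale. Arrays of a pair differed by at least 2-fold at 1576 probe sets in CD4+ TEM cells, 3758 in CD4+ memory, 569 in CD8+ TEM, 943 in naïve CD4+ and 2397 in naïve CD8+ cells. The co-receptor *Cd8b1* stayed at 4.94 to 5.63 on all CD4+ arrays, against 10.98 to 11.54 on the CD8+ arrays. *Cd8a* read 7.67 and 8.17 in CD4+ TEM cells, 3.93 and 5.38 in CD4+ memory and 5.16 and 4.99 in naïve CD4+ cells. On each array the linear signals of B cell markers, of which 9 of 10 listed were measured, were summed. They came to 2447 and 2102 in CD4+ TEM cells, 3556 and 2411 in CD4+ memory and 2702 and 3066 in CD8+ TEM cells, against 149 and 147 in naïve CD4+ and 373 and 844 in naïve CD8+ cells. The sum rests mostly on *Ebf1*, at 10.56 and 10.32 in CD4+ TEM cells, against 3.71 and 2.93 in naïve CD4+ cells, while *Pax5* read 3.84 and 4.18, against 3.62 on both naïve CD4+ arrays. Of the 9 markers, 5 were called higher in CD4+ TEM cells, 7 in CD4+ memory and 5 in CD8+ TEM cells. Of all genes, 16.4%, 13.5% and 20.9% were called higher in these groups. The 6 myeloid markers summed to 277 and 327 in CD4+ TEM cells, 374 and 206 in CD4+ memory and 355 and 347 in CD8+ TEM cells, against 97.5 and 137 in naïve CD4+ and 225 and 562 in naïve CD8+ cells. In CD4+ TEM cells 2 of the 6 were called higher, against 16.4% of all genes. These were *Adgre1*, by 3.30 (adjusted p = 0.02426), and *Cd68*, by 2.72 (adjusted p = 0.0001578). Both were also called in memory cells, where 13.5% of all genes were higher. What the sort on day 25 left of such cells was not tested.

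*Ahr* was high in CD4+ TEM cells and in no other group. All levels below are log2 RMA values of the probe set with the highest mean of its gene unless another is named, and values of different genes are not set against each other. *Ahr* read 9.10 and 9.48 in CD4+ TEM cells, 5.54 and 5.31 in CD4+ memory cells and 5.73 and 5.54 in naïve CD4+ cells. In the CD8+ lineage it read 6.74 and 6.12 in CD8+ TEM cells and 6.70 and 5.77 in naïve CD8+ cells. Both CD4+ TEM arrays thus stood above the other 8, and the CD8+ TEM and naïve CD8+ pairs overlapped. Induction of *Ahr* in CD4+ TEM cells was also reported by the authors.

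*Ahr* rose in CD4+ TEM cells by 3.65 over naïve CD4+ cells, 12.6-fold on the RMA scale (SE 0.33, adjusted p = 9.897e-05, limma with Benjamini-Hochberg adjustment). It differed by 0.20 between CD8+ TEM and naïve CD8+ cells (adjusted p = 0.7048), with a 95% interval of -0.55 to 0.95. The change in CD4+ TEM cells exceeded that in CD8+ TEM cells by 3.45 (SE 0.46, adjusted p = 0.003626). Against CD4+ memory cells of the same day, *Ahr* was higher in CD4+ TEM cells by 3.86 (adjusted p = 0.0005539), whereas memory and naïve CD4+ cells differed by -0.21 (adjusted p = 0.711, interval -0.96 to 0.54). In order of the group means, CD4+ TEM (9.29 ± 0.27, SD, n = 2) was followed by CD8+ TEM (6.43 ± 0.44), naïve CD8+ (6.23 ± 0.65), naïve CD4+ (5.64 ± 0.14) and CD4+ memory cells (5.43 ± 0.16). Of these neighbours, CD4+ TEM and CD8+ TEM cells differed past the threshold, by 2.86 (adjusted p = 0.003688), and the others did not, with 0.60 for naïve CD8+ minus naïve CD4+ cells (adjusted p = 0.2681). As these are bulk samples, fewer cells that express a gene and less RNA per cell cannot be told apart. Of 2 markers of regulatory T cells, 1 rose and 1 fell in CD4+ TEM cells, against 16.4% and 10.1% of all genes. Their summed linear signal was 1680 and 1686 in CD4+ TEM cells, 348 and 366 in CD4+ memory and 291 and 310 in naïve CD4+ cells, with 1019 and 905 in CD8+ TEM and 250 and 228 in naïve CD8+ cells. The sum followed *Ikzf2*, which rose by 2.81 in CD4+ TEM cells (adjusted p = 4.641e-06), while *Foxp3*, which defines the lineage, fell by 1.28 (adjusted p = 0.007094). The part of these cells in the *Ahr* values was not tested.

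**Figure D1:**
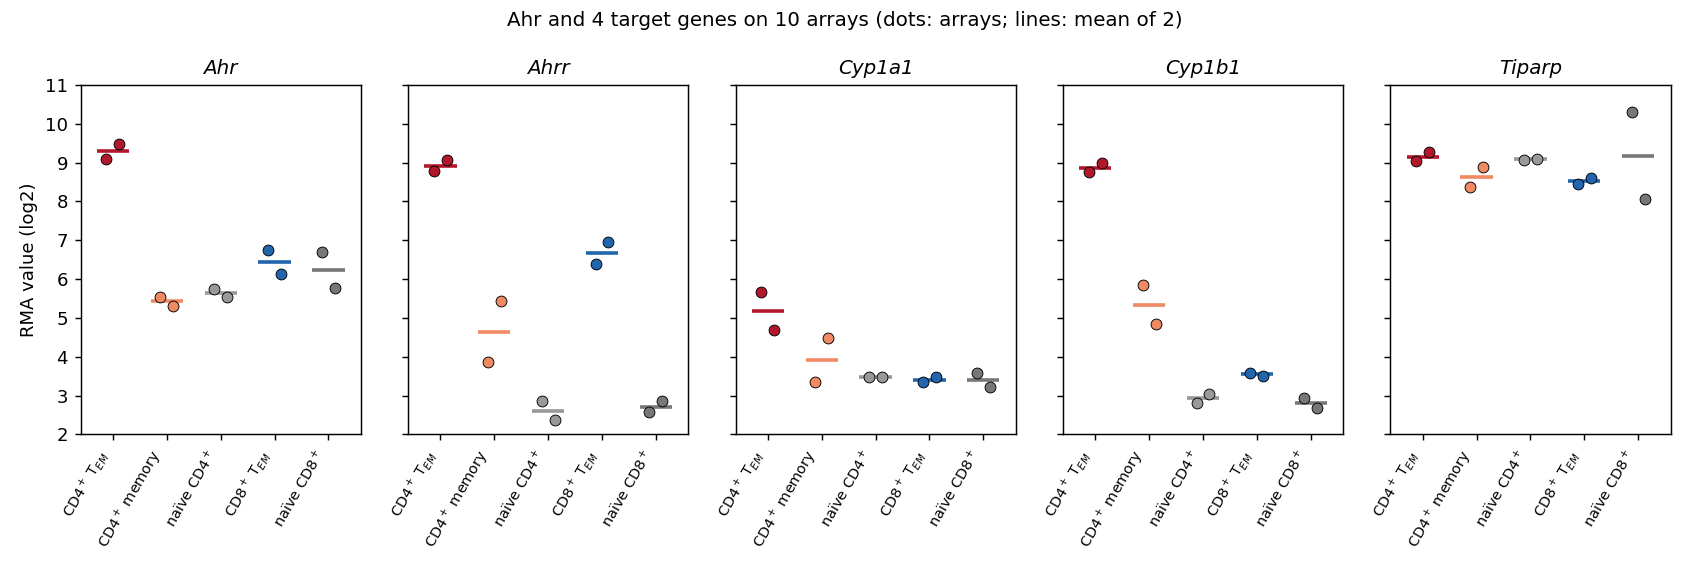
RMA values (log2, vertical axis) of *Ahr* and the 4 targets on 10 arrays, by group along the horizontal axis. Dots are arrays and lines the mean of 2; *Ahr*, *Ahrr* and *Cyp1b1* are highest on the CD4+ TEM arrays, at 8.76 to 9.48, while the naïve CD8+ arrays of *Tiparp* read 10.3 and 8.07.

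*Cyp1b1*, the P450 enzyme, was high in CD4+ TEM cells like *Ahr*, with a smaller rise in memory cells. It read 8.76 and 8.98 in CD4+ TEM cells, 5.85 and 4.84 in CD4+ memory cells and 2.81 and 3.05 in naïve CD4+ cells. Its CD8+ TEM values were 3.59 and 3.51, against 2.93 and 2.69 in naïve CD8+ cells. CD4+ TEM cells stood far above all others, and memory cells lay between them and naïve cells. The rise in CD4+ TEM cells was 5.94 (SE 0.30, adjusted p = 4.6e-06), while the change of 0.74 in CD8+ TEM cells did not pass (adjusted p = 0.09097, interval 0.05 to 1.43). The changes differed by 5.20 (SE 0.42, adjusted p = 0.0006435). On the naïve arrays only 10.9% to 18.1% of probe sets lay below *Cyp1b1*, so the sizes depend on the array's lower limit. *Cyp1b1* also rose in CD4+ memory cells, by 2.42 over naïve CD4+ cells (SE 0.30, adjusted p = 0.0007726), where *Ahr* had no called change, and it was higher in CD4+ TEM than in memory cells by 3.53 (adjusted p = 0.0005676).

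The other *Cyp1b1* probe sets split on the memory cells. 1416613_at read 5.63 and 5.999 in CD4+ TEM, 2.69 and 2.81 in CD4+ memory and 3.08 and 3.28 in naïve CD4+ cells. In a fit of all probe sets, where 23.5% had a call in CD4+ TEM cells, 31.9% in CD8+ TEM cells, 19.7% in memory cells and 7.87% for the difference of the changes, it rose by 2.63 in CD4+ TEM cells (adjusted p = 3.344e-05), but its memory cells lay below naïve cells by a difference of -0.43 that did not pass (adjusted p = 0.1228). The partial rise in memory cells thus rests on 1 probe set. The B cell marker sum was also high in memory cells, at 3556 and 2411, and its part in this value was not tested. 1432081_at stayed between 2.83 and 3.38 on all arrays and changed by 0.12 in CD4+ TEM cells (adjusted p = 0.6635). The second *Ahr* probe set, 1450695_at, was dim, at 2.92 to 3.78, and rose by 0.70 in CD4+ TEM cells (adjusted p = 0.01049). Its difference between the CD4+ TEM and CD8+ TEM changes, 0.49, did not pass (adjusted p = 0.2169).

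**Figure D2:**
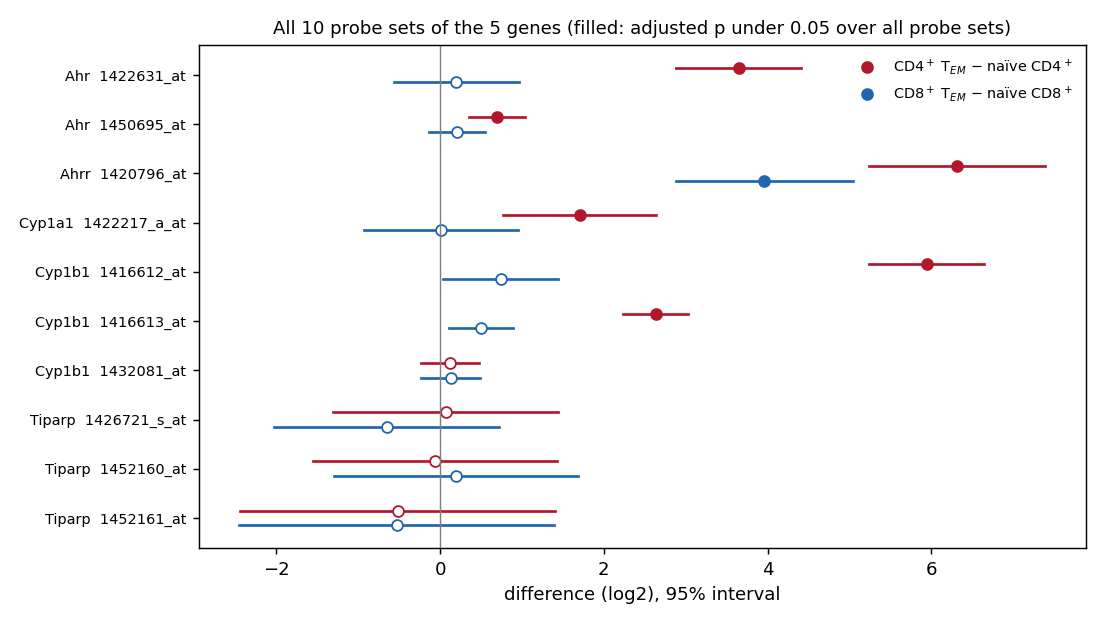
Difference (log2, horizontal axis) with its 95% interval for the 10 probe sets of the 5 genes, in CD4+ TEM minus naïve CD4+ cells and CD8+ TEM minus naïve CD8+ cells. Filled points have an adjusted p under 0.05 over all probe sets; *Ahr* 1422631_at lies at 3.65 and the dim 1450695_at at 0.70 in CD4+ TEM cells, and no *Tiparp* probe set passed.

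*Ahrr*, the AHR repressor, rose in all cultured groups, including those without a called change of *Ahr*. It read 8.78 and 9.07 in CD4+ TEM cells, 3.87 and 5.43 in CD4+ memory cells and 2.85 and 2.36 in naïve CD4+ cells. It read 6.39 and 6.97 in CD8+ TEM cells, against 2.57 and 2.86 in naïve CD8+ cells. No cultured array overlapped the naïve arrays, and CD4+ TEM cells were highest. The B cell marker sum was likewise above naïve cells in every cultured group. *Cd4* was called higher in CD8+ TEM cells, at 6.51 and 6.89, against 4.30 and 4.10 in naïve CD8+ cells (difference 2.50, adjusted p = 1.371e-05), and read 11.50 to 11.89 on the CD4+ arrays. The part of other cells in the *Ahrr* values was not tested. The rise was 6.31 in CD4+ TEM cells (SE 0.46, adjusted p = 3.375e-05), 2.04 in CD4+ memory cells (SE 0.46, adjusted p = 0.01464) and 3.96 in CD8+ TEM cells (SE 0.46, adjusted p = 0.0002527). The naïve arrays lay near the bottom of the range, with 1.82% to 15.8% of probe sets below *Ahrr*, so the sizes of these rises depend on the array's lower limit. In level, CD4+ TEM cells exceeded memory cells by 4.27 (adjusted p = 0.001909) and CD8+ TEM cells by 2.24 (adjusted p = 0.03158). The call in memory cells was lost without naïve CD4+ replicate 2 (1.80, adjusted p = 0.09464). That against CD8+ TEM cells was lost without any 1 of the CD4+ TEM, CD8+ TEM or naïve CD4+ arrays, with 1.95 to 2.53. The excess of the CD4+ TEM change over the CD8+ TEM change, 2.35, fell short of the threshold (SE 0.65, adjusted p = 0.05375, interval 0.85 to 3.86). Fitting the naïve and TEM arrays alone gave the same 2.35 with an adjusted p of 0.007361. Leaving out 1 CD4+ memory array repeats that fit, since a lone array adds no scatter, and is no further support.

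*Cyp1a1*, the P450 enzyme most often used as a readout of AHR activity, was near its lowest values on most arrays. It read 5.67 and 4.70 in CD4+ TEM cells, 3.36 and 4.48 in CD4+ memory cells and 3.48 on both naïve CD4+ arrays. CD8+ TEM cells read 3.36 and 3.47, against 3.57 and 3.23 in naïve CD8+ cells. Both CD4+ TEM arrays were above all others, but memory replicate 2 lay only just under CD4+ TEM replicate 2. The rise in CD4+ TEM cells was 1.71 (SE 0.40, adjusted p = 0.01503). It was 1.22 without CD4+ TEM replicate 1 (adjusted p = 0.09363), and the call was also lost without naïve CD4+ replicate 1 (adjusted p = 0.07123) or replicate 2 (adjusted p = 0.0732). In CD8+ TEM cells the change was 0.01 (adjusted p = 0.9886, interval -0.92 to 0.94), and the difference of the changes, 1.70, did not pass (SE 0.57, adjusted p = 0.09732, interval 0.39 to 3.005). CD4+ TEM cells exceeded CD8+ TEM cells by 1.77 (adjusted p = 0.04275), a call that was lost in 8 of 10 fits without 1 array and kept only without a CD4+ memory array. Their difference from memory cells, 1.27, did not pass (adjusted p = 0.1236).

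*Tiparp*, the ADP-ribosyltransferase that acts back on AHR, had no call in any comparison. It read 9.05 and 9.26 in CD4+ TEM, 8.37 and 8.89 in CD4+ memory and 9.07 and 9.10 in naïve CD4+ cells, a difference of 0.07 for CD4+ TEM minus naïve cells (SE 0.59, adjusted p = 0.9566, interval -1.29 to 1.43). It read 8.46 and 8.60 in CD8+ TEM cells, against 10.3 and 8.07 in naïve CD8+ cells, which differed by -0.65 (adjusted p = 0.4545). The naïve CD8+ arrays lay on either side of the CD8+ TEM arrays, and the other *Tiparp* probe sets had the same gap, with 8.11 and 5.66 for 1452160_at and 7.10 and 3.91 for 1452161_at. This pair widens the error of every *Tiparp* comparison. On all 3 probe sets both CD4+ TEM arrays lay above the CD4+ memory arrays, with differences of 0.53, 1.12 and 1.44, and above the CD8+ TEM arrays, with 0.63, 0.82 and 1.04, and no call. Without naïve CD8+ replicate 2 the CD8+ TEM change was -1.77 (adjusted p = 0.001472), and without replicate 1 it was 0.46. In a list of 10 immediate early genes, chosen after their values were seen, all 10 were higher on naïve CD8+ replicate 1 than on replicate 2, with a median gap of 3.04. Their summed linear signal was 34045 and 5659 on these 2 arrays. It was also high in naïve CD4+ cells, at 28764 and 28762, against 5118 and 5694 in CD4+ TEM cells. Of the 10, 6 were called lower and 1 higher in CD4+ TEM cells, against 10.1% and 16.4% of all genes. Their part in the *Tiparp* gap, or in its difference of 0.07 in CD4+ TEM cells, was not tested.

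**Figure D3:**
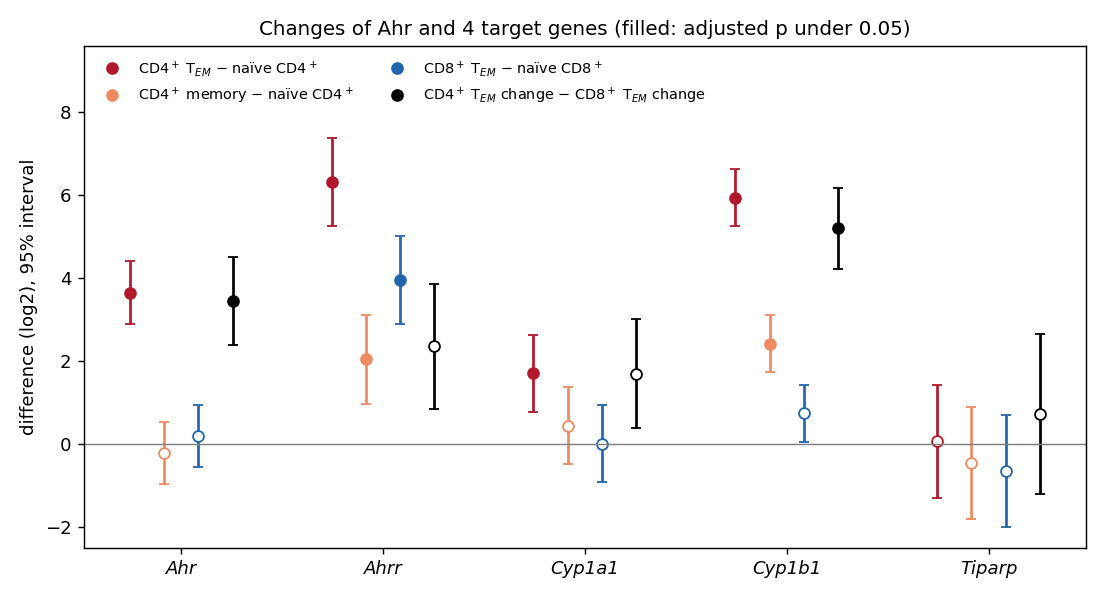
Differences (log2, vertical axis) with 95% intervals for the 5 genes in CD4+ TEM, CD4+ memory and CD8+ TEM cells, each minus its naïve cells, and the CD4+ TEM change minus the CD8+ TEM change. Filled points have an adjusted p under 0.05; *Ahrr* is the 1 gene filled in CD8+ TEM cells, at 3.96.

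Counted together, 4 of the 5 genes were higher in CD4+ TEM than in naïve CD4+ cells and 1 had no call, with a median of 3.65. Of all genes, 16.4% were higher in that comparison and the median was 0.02. In CD8+ TEM cells 1 of 5 was higher, against 20.9% of all genes, with medians of 0.20 and 0.06. In CD4+ memory cells 2 of 5 were higher, against 13.5% of all genes, with medians of 0.44 and 0.08. The difference of the changes was called for 2 of 5 genes, with 8.03% of all genes called in the same direction. CD4+ TEM cells exceeded CD4+ memory cells at 3 of 5 genes, against 3.89% of all genes, and CD8+ TEM cells at 4 of 5, against 2.19%. Naïve CD8+ and naïve CD4+ cells differed by limma at 0 of 5, and at 0 with an unadjusted p under 0.05, against 13.9% of all genes higher and 6.65% lower. None of the 5 had a call for lower in any comparison, nor an unadjusted p under 0.05 in that direction. Of all genes, the share called lower was 10.1% in CD4+ TEM, 17.2% in CD8+ TEM and 9.78% in CD4+ memory cells, 4.49% for the difference of the changes, and 1.64% and 3.53% for CD4+ TEM against memory and CD8+ TEM cells. The comparisons of CD4+ cells share arrays, so their counts are not independent.

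Of the measured partners of the receptor, *Arnt2* alone rose in CD4+ TEM cells, and it rose in CD8+ TEM cells too. Of 6 listed, 3 are reported here, and 1 of the 3 rose in CD4+ TEM cells, against 16.4% of all genes. *Arnt*, the partner that binds DNA with AHR, read 9.55 and 9.51 in CD4+ TEM cells, against 9.995 and 9.78 in naïve CD4+ cells, a difference of -0.36 (adjusted p = 0.1681). *Arnt* fell by 0.75 in CD8+ TEM cells (adjusted p = 0.00777). *Arnt2*, its paralog, read 5.73 and 6.03 in CD4+ TEM cells, 4.20 and 4.22 in CD4+ memory and 3.59 and 3.32 in naïve CD4+ cells, with 7.03 and 6.42 in CD8+ TEM cells, against 3.52 and 3.68 in naïve CD8+ cells. It rose by 2.43 in CD4+ TEM cells (adjusted p = 0.0001097) and by 3.13 in CD8+ TEM cells (adjusted p = 1.846e-05), and the difference between these changes did not pass (-0.70, adjusted p = 0.2058). Its 2 other probe sets changed by -0.01 and -0.15 in CD4+ TEM cells and had no call. *Hsp90aa1*, which encodes a chaperone of the receptor, changed by -0.78 in CD4+ TEM and 0.68 in CD8+ TEM cells with no call. Its naïve CD8+ arrays read 12.43 and 10.3, on either side of the CD8+ TEM arrays, both at 12.05. Values of its other probe sets are not given here. The list's median was -0.36 in CD4+ TEM cells, beside 0.02 for all genes.

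Of 10 further xenobiotic targets, 7 were measured, of which 3 rose and 2 fell in CD4+ TEM cells, against 16.4% and 10.1% of all genes, with a median of 0.06 beside 0.02 for all genes. *Socs2*, a feedback inhibitor of cytokine signalling, rose by 5.57 in CD4+ TEM cells (adjusted p = 4.851e-06) and by 6.81 in CD8+ TEM cells. It read 10.70 and 10.64 in CD4+ TEM and 10.77 and 10.93 in CD4+ memory cells, and this difference, -0.18, did not pass (adjusted p = 0.7765), although *Ahr* was low in memory cells. *Cyp2s1*, another P450 enzyme, rose by 1.87 in CD4+ TEM cells (adjusted p = 0.007197) and by 1.11 in CD8+ TEM cells (adjusted p = 0.04792). *Nqo1*, a quinone reductase, rose by 1.61 in CD4+ TEM cells (adjusted p = 0.001161) and had 0.61 in CD8+ TEM cells (adjusted p = 0.06699). It rose by 2.19 in CD4+ memory cells (adjusted p = 0.000288), averaging 6.40 there and 5.81 in CD4+ TEM cells. In level, CD4+ TEM and CD8+ TEM cells differed by 0.07 (adjusted p = 0.9128), and naïve CD8+ cells exceeded naïve CD4+ cells by 0.92 (adjusted p = 0.02288). *Nfe2l2*, the factor of the antioxidant response, fell by 1.32 in CD4+ TEM cells (adjusted p = 0.008923). No gene of the 7 had a called difference between the CD4+ TEM and CD8+ TEM changes, against 8.03% of all genes called higher and 4.49% lower. Of the 7, 3 had an unadjusted p under 0.05.

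Several AHR-linked genes of T cells rose in both lineages. Of 12 listed, 9 were measured, and 5 rose and none fell in CD4+ TEM cells, against 16.4% of all genes higher and 10.1% lower, where the median was 1.51 beside 0.02 for all genes. In CD8+ TEM cells 4 rose and 1 fell, against 20.9% and 17.2% of all genes, with a median of 0.60 beside 0.06. *Il21*, a helper T cell cytokine, rose by 3.81 in CD4+ TEM cells (adjusted p = 3.565e-05) and by 4.30 in CD8+ TEM cells. *Asb2*, a ubiquitin ligase subunit, rose by 3.80 (adjusted p = 3.68e-06) and 3.75, and *Il1r1*, the IL-1 receptor, by 2.79 (adjusted p = 0.0004177) and 3.07 in the same groups. *Entpd1*, which encodes the ectonucleotidase CD39, rose by 2.74 in CD4+ TEM cells (adjusted p = 1.99e-05) and by 4.06 in CD8+ TEM cells. It was the 1 gene of the list with a called difference between the changes, -1.31 (adjusted p = 0.01552). Of all genes, 4.49% were called in that direction. The other *Entpd1* probe sets gave differences of -0.57 and -0.02 without a call. In level, *Entpd1* averaged 7.05 in CD4+ TEM and 6.80 in CD8+ TEM cells (difference 0.25, adjusted p = 0.5244). Naïve CD8+ cells, at 2.74, lay below naïve CD4+ cells, at 4.31 (difference -1.56, adjusted p = 0.0009072). Within the CD4+ culture, *Maf*, a factor that acts with AHR at *Il10* and *Il21*, read 8.69 and 8.86 in CD4+ TEM cells, against 3.24 and 3.74 in CD4+ memory cells (difference 5.28, adjusted p = 0.0002968). It was picked for this contrast after its values were seen, and its change between CD4+ TEM and naïve CD4+ cells, 0.11, did not pass. These *Maf* values are of 1 probe set, and those of its other probe sets are not given here. The authors list *Maf*, like *Ahr*, among the genes induced in CD4+ TEM cells, and name no probe set.

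Among 11 genes that make, break down or take up precursors of AHR ligands, the CD4+ TEM and CD8+ TEM changes differed at 1, against 4.49% of all genes called in that direction. The list covers tryptophan uptake and the kynurenine and related pathways, and 4 of its genes rose and none fell in CD4+ TEM cells, against 16.4% and 10.1% of all genes, with a median of 0.10 beside 0.02. *Ido1*, the enzyme that opens the kynurenine pathway and so supplies ligands, read 4.99 and 6.06 in CD4+ TEM cells and 4.34 and 4.09 in CD4+ memory cells, against 3.75 and 3.60 in naïve CD4+ cells. In CD8+ TEM cells it read 9.62 and 9.71, against 3.70 and 3.47 in naïve CD8+ cells. *Ido1* was thus highest in CD8+ TEM cells, in which *Ahr* had no call. Its rise was 1.85 in CD4+ TEM cells (adjusted p = 0.002776) and 6.08 in CD8+ TEM cells (adjusted p = 3.642e-06), a difference of -4.24 (adjusted p = 0.001367).

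*Kynu* and *Kmo*, whose enzymes use up kynurenine, were high in both TEM groups and low in memory cells. *Aadat*, a kynurenine aminotransferase, averaged 2.74 in CD4+ TEM, 3.07 in CD4+ memory and 2.84 in naïve CD4+ cells and had no call. *Kynu*, kynureninase, read 8.76 and 8.60 in CD4+ TEM cells, 3.88 and 4.25 in CD4+ memory and 3.46 and 4.18 in naïve CD4+ cells. It rose by 4.86 in CD4+ TEM cells (adjusted p = 5.801e-06) and by 4.797 in CD8+ TEM cells, and exceeded memory cells by 4.62 in CD4+ TEM cells (adjusted p = 6.546e-05). *Kmo*, kynurenine monooxygenase, read 8.73 and 8.43 in CD4+ TEM cells, 4.97 and 4.59 in CD4+ memory and 4.23 and 4.59 in naïve CD4+ cells, a rise of 4.17 (adjusted p = 0.0008509), and rose by 4.12 in CD8+ TEM cells. *Slc7a5*, a transporter for tryptophan, rose by 0.65 in CD4+ TEM cells (adjusted p = 0.02385) and by 1.44 in CD8+ TEM cells. The differences between the lineages' changes, 0.07 for *Kynu* and 0.05 for *Kmo*, did not pass (adjusted p = 0.937 and 0.9771).

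**Figure D4:**
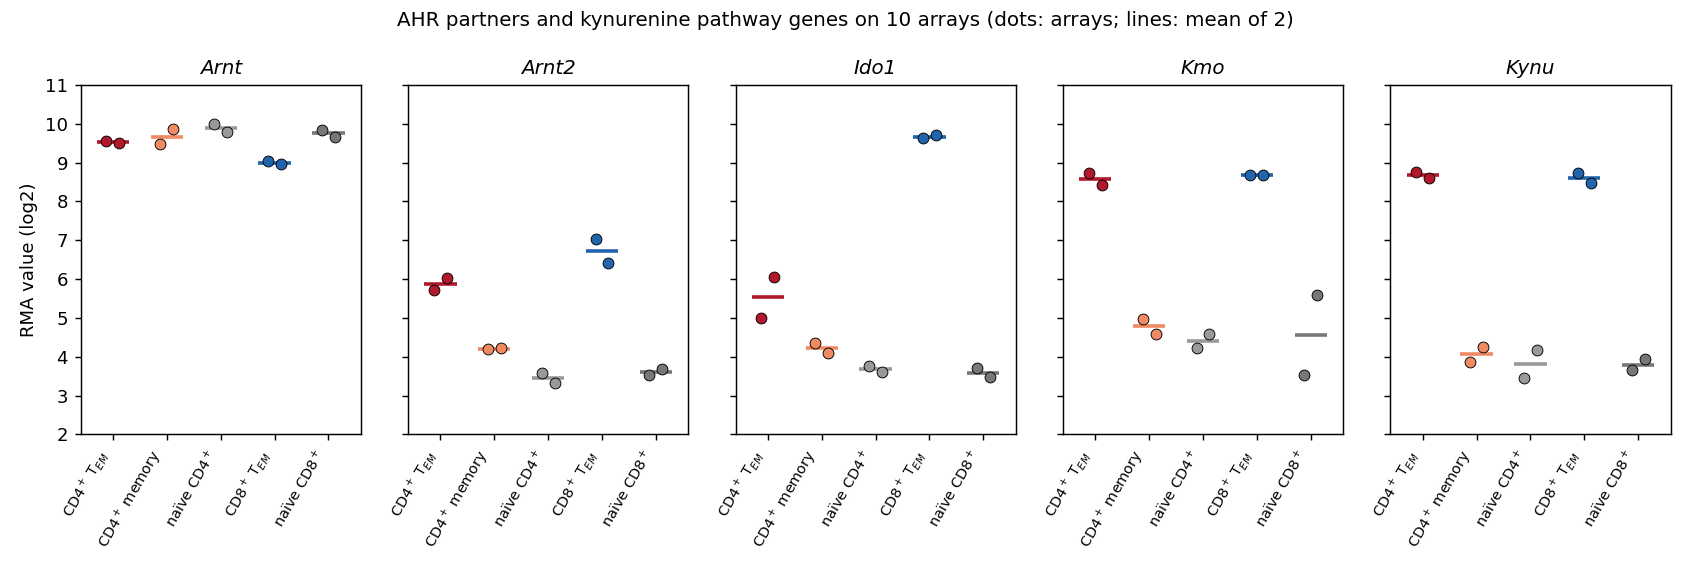
RMA values (log2, vertical axis) of *Arnt*, *Arnt2*, *Ido1*, *Kmo* and *Kynu* on 10 arrays, by group along the horizontal axis. Dots are arrays and lines the mean of 2; *Ido1* lies at 9.62 and 9.71 in CD8+ TEM cells, against 4.99 and 6.06 in CD4+ TEM cells, and *Kynu* is high in both.

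The genes whose centred profile over the 10 arrays lay nearest to that of *Ahr*, by root mean square difference, were *Kcna4* (0.58), *Il13* (0.61), *Col6a1* (0.64), *Gcnt1* (0.65) and *Itga1* (0.70). *Il13*, a TH2 cytokine, averaged 8.77 in CD4+ TEM, 4.99 in CD4+ memory and 4.19 in naïve CD4+ cells, with 5.58 in CD8+ TEM and 4.42 in naïve CD8+ cells. Of the targets, *Cyp1a1* ranked 71st of 18192 genes on this measure, *Tiparp* 2776th, *Cyp1b1* 4790th and *Ahrr* 14293rd. *Tiparp*, which had no call in any comparison, thus lay nearer to *Ahr* than *Cyp1b1* did (1.36 against 1.40). The measure takes in the size of changes as well as the shape of a profile, and the parts of these in the ranks were not separated.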

How the data were processed

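RNA of 5 groups of T cells, 2 samples each, was hybridised to Affymetrix arrays. Normalization by RMA was done by the authors with BRB-ArrayTools, and the table they deposited gives log2 values, from 1.68 to 14.86. Array background, summarisation and the number of arrays limit the precision, and RMA narrows the changes of dim probe sets. Groups came from titles and source names. Of 45101 probe sets, 64 controls were left out, 34945 had 1 gene symbol in the platform annotation, 932 had several and 9160 none. Symbols of 34741 were updated through a RefSeq gene table. Where a gene had several probe sets, that with the largest average signal stood for it.

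Using R 4.3.3, limma 3.58.1 and statmod 1.5.0, all 10 arrays entered 1 linear model with a mean per group (5 residual degrees of freedom). Variances were moderated by empirical Bayes, tests were two-sided with 95% intervals, and p-values were adjusted by Benjamini-Hochberg across the 18193 genes in each of 7 comparisons. A call is an adjusted p under 0.05. Errors are SD over 2 arrays or standard errors of the fit. The test was tested on simulated data with known changes. The members and gene lists were chosen with earlier results of these data known. The genes named are the 5 members, of each of 4 lists up to 4 called genes with the largest change in CD4+ TEM cells or in the difference of the changes, and the 5 genes nearest to *Ahr*. Also named, after their values were seen, are *Maf*, *Arnt*, *Hsp90aa1*, *Aadat* and the marker genes. Alternatives were the mean of all probe sets, every probe set, probe sets without cross-hybridisation suffixes, a log intensity variation filter (p of 0.01), a highest group mean of at least 6, centring on array medians, renewed quantile normalization, only the arrays compared, trend and robust moderation, a replicate block, and each array left out. Figures used Python 3.11.15 with matplotlib 3.10.9.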

Additional observations from a re-analysis of the deposited data

Results flagged for a closer look

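The change of *Ahr* in CD4+ TEM cells, each set against its naïve cells, exceeded that in CD8+ TEM cells by 3.45 (SE 0.46, adjusted p = 0.003626, limma). For *Cyp1b1* the same difference was 5.20 (SE 0.42, adjusted p = 0.0006435). These 2 of the 5 genes stood out because the test of the difference between lineages itself passed the threshold. Both *Ahr* arrays and both *Cyp1b1* arrays of CD4+ TEM cells lay above all other arrays of that gene. The dim *Ahr* probe set gave 0.49 (adjusted p = 0.2169), and *Cyp1b1* 1416613_at gave 2.13 (adjusted p = 0.003672). The third *Cyp1b1* probe set, 1432081_at, gave -0.01 (adjusted p = 0.9916). Groups of 2 arrays were too small to look for single arrays that stand apart.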

How the results depend on the processing

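Of 686 values of the 5 genes under alternatives, 645 kept their side of the threshold, 18 passed it newly and 22 lost it. Only 1 changed its sign with a call. Changes of sign without a call were counted among the 645, as for *Tiparp* in CD4+ TEM cells, which ran from -0.17 to 0.18. *Ahr* and *Cyp1b1* kept their calls in CD4+ TEM cells and in the difference of the changes under all alternatives run, although the mean of all probe sets lowered the CD4+ TEM rise to 2.17 for *Ahr* and 2.90 for *Cyp1b1*. *Cyp1a1* had no value without probe sets of its suffix or with a highest group mean of at least 6.

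Fitting only the arrays compared changed several calls. *Cyp1b1* in CD8+ TEM cells passed at 0.74 (adjusted p = 0.01837), as it did at 0.46 with the mean of probe sets (adjusted p = 0.03065). The *Cyp1a1* difference of the changes, 1.70, passed (adjusted p = 0.0387). *Ahrr* in memory cells, 2.04 (adjusted p = 0.08501), *Ahrr* in CD4+ TEM against memory cells, 4.27 (adjusted p = 0.06391), and *Cyp1a1* in CD4+ TEM against CD8+ TEM cells, 1.77 (adjusted p = 0.05802), no longer passed. The *Ahrr* difference of the changes, 2.35, passed with the variation filter (adjusted p = 0.0352), the filter on dim genes (0.04033), only the arrays compared (0.007361) and trend and robust moderation (0.03366).

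Leaving out each array in turn gave *Cyp1a1* in CD4+ TEM cells 1.22 to 2.19, against memory cells 0.71 to 1.83 and against CD8+ TEM cells 1.29 to 2.26. *Ahrr* gave 1.26 to 2.82 in memory cells, losing its call without naïve CD4+ replicate 2 (1.80). Both ends of that range come from fits without 1 CD4+ memory array. The lone memory array left adds no scatter, so a call kept there is no support. For CD4+ TEM against CD8+ TEM cells *Ahrr* gave 1.95 to 2.53, a call lost in 6 of 10. The differences of the changes spanned 2.06 to 2.64 for *Ahrr*, 1.21 to 2.18 for *Cyp1a1* and -0.39 to 1.83 for *Tiparp*, which passed without naïve CD8+ replicate 2 (adjusted p = 0.01441). *Cyp1b1* in CD8+ TEM cells gave 0.62 to 0.86 and *Tiparp* there -1.77 to 0.46. *Tiparp* in naïve CD8+ minus naïve CD4+ cells reversed to -1.02 without naïve CD8+ replicate 1 (adjusted p = 0.03241), against 1.21 without replicate 2 (adjusted p = 0.01647). The cause of these shifts was not tested.

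Counts of all genes called, in the order CD4+ TEM, CD8+ TEM, difference of the changes, memory, CD4+ TEM against memory, CD4+ TEM against CD8+ TEM, and naïve CD8+ against naïve CD4+, were 4825, 6926, 2278, 4227, 1005, 1041 and 3733. With every probe set tested, of 45037, they were 10571, 14381, 3545, 8885, 1574, 2443 and 7207. Without single arrays they spanned 3185 to 5346, 5230 to 7389, 982 to 2774, 2575 to 4497, 490 to 1140, 219 to 1436 and 2109 to 4218. For CD4+ TEM against memory cells, only the arrays compared gave 223.

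Same-numbered arrays deviated with correlations of -0.04 to 0.03, so the values show no pairing by number. Whether such samples shared an animal or culture is not settled by this. With the replicate block, the *Ahrr* difference of the changes passed at 2.35 (adjusted p = 0.0478) and *Cyp1a1* in CD4+ TEM against CD8+ TEM cells, 1.77, did not (adjusted p = 0.06792).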
